A study of Mus musculus with 8 samples.

Results

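The crypt stem cell genes described here are 10 genes grouped by their link to Wnt signalling or to stem cells at the base of intestinal crypts. They are Lgr5, Lgr4, Ascl2, Smoc2, Axin2, Rnf43, Znrf3, Sox9, Ephb2 and Nrn1, and their dependence on Wnt was not tested. They were chosen with earlier results of these data known and taken by symbol from the 35963 gene symbols of the count table. All 10 were found, and all 10 passed the filter on low counts. RNA came from epithelial cells that a releasing buffer detached from the proximal colon of mice aged 4 weeks. The 4 libraries labelled Ccna2-KO came from Ccna2 fl/fl vil-Cre mice, in which villin-driven Cre acts throughout the intestinal epithelium. The 4 control libraries came from Ccna2 fl/fl mice without Cre, labelled wild type, so that both groups carried the floxed alleles. The question is how epithelial RNA levels change when cyclin A2, a kinase partner active during DNA replication and before mitosis, is targeted there.

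Stem cells at the crypt base are kept by Wnt signals from the surrounding stroma and neighbouring cells. Secreted R-spondins bind Lgr4 and Lgr5 and remove the ubiquitin ligases Rnf43 and Znrf3, which otherwise clear Frizzled receptors from the cell surface. Stabilised beta-catenin then acts with TCF factors on target genes, among them Axin2, Lgr5, Ascl2, Sox9 and Ephb2, and Axin2, Rnf43 and Znrf3 in turn dampen the pathway. Several of these genes are also active outside stem cells: Lgr4 and Sox9 are found more widely along the crypt, and Smoc2 and Axin2 also in stromal cells.

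The libraries held between 27162083 and 34386731 estimated counts. Whether any 2 libraries shared an animal is not stated in the labels, and p-values here reflect only how far libraries of a group spread. Ccna2 itself overlapped between the groups, with 16.2 to 26.6 CPM (counts scaled to a common library size, with TMM factors) in libraries labelled Ccna2-KO and 11.9 to 54.3 CPM in controls, so every direction below rests on the labels. The highest control value was that of control replicate 1, with 1557 Ccna2 counts. Control replicates 2 to 4 held 648, 387 and 605 counts, and Ccna2-KO replicates 1 to 4 held 541, 886, 853 and 414. Counts per transcript cannot show whether the floxed exons were lost. The library numbers in the labels form a high set (621 to 641), with Ccna2-KO replicates 1 to 3 and control replicate 1, and a low set (595 to 598), with Ccna2-KO replicate 4 and control replicates 2 to 4. The labels do not explain these numbers, and because set and genotype overlap in 6 of 8 libraries their effects are only partly separable. Markers of epithelium were abundant in every library. The summed CPM of 9 such genes was 17688 to 24041 in Ccna2-KO libraries and 18433 to 20867 in controls, and 0 of the 9 passed in edgeR (1 at an unadjusted p under 0.05; 0 in DESeq2 and limma voom).

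Of the 10 crypt genes, 3 fell and 1 rose in the libraries labelled Ccna2-KO. Lgr5, Smoc2 and Nrn1 were the genes that fell and Axin2 the one that rose, by edgeR's quasi-likelihood test with Benjamini-Hochberg adjustment over all genes and a threshold of 0.05. Across all 15893 genes tested, 5.71% were lower and 6.4% higher by the same rule. Because the 10 genes were chosen with earlier results of these data known, their counts here are descriptions and not a test of enrichment. Nrn1 met the filter through the controls alone, with 0 of 4 Ccna2-KO libraries at its cutoff of 0.325 CPM, and so had to differ to be tested. It is therefore no support for a count, and of the 9 genes that met the filter in both groups 2 fell and 1 rose. The other 6 genes, Lgr4, Ascl2, Rnf43, Znrf3, Sox9 and Ephb2, did not pass. The median log2 fold change of the 10 genes was -0.07, and that of all genes tested -0.01. In 4 of the 10 genes, the same 4 that were called and Nrn1 among them, the values of the groups did not overlap, against 19% of all genes tested (9.41% with Ccna2-KO above and 9.6% with Ccna2-KO below). The same 4 genes were called, in the same directions, when the library number set was added as a term, where the background was 9.29% higher and 8.9% lower. In bulk RNA, fewer cells of a type cannot be told apart from less RNA per cell.

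**Figure D1:**
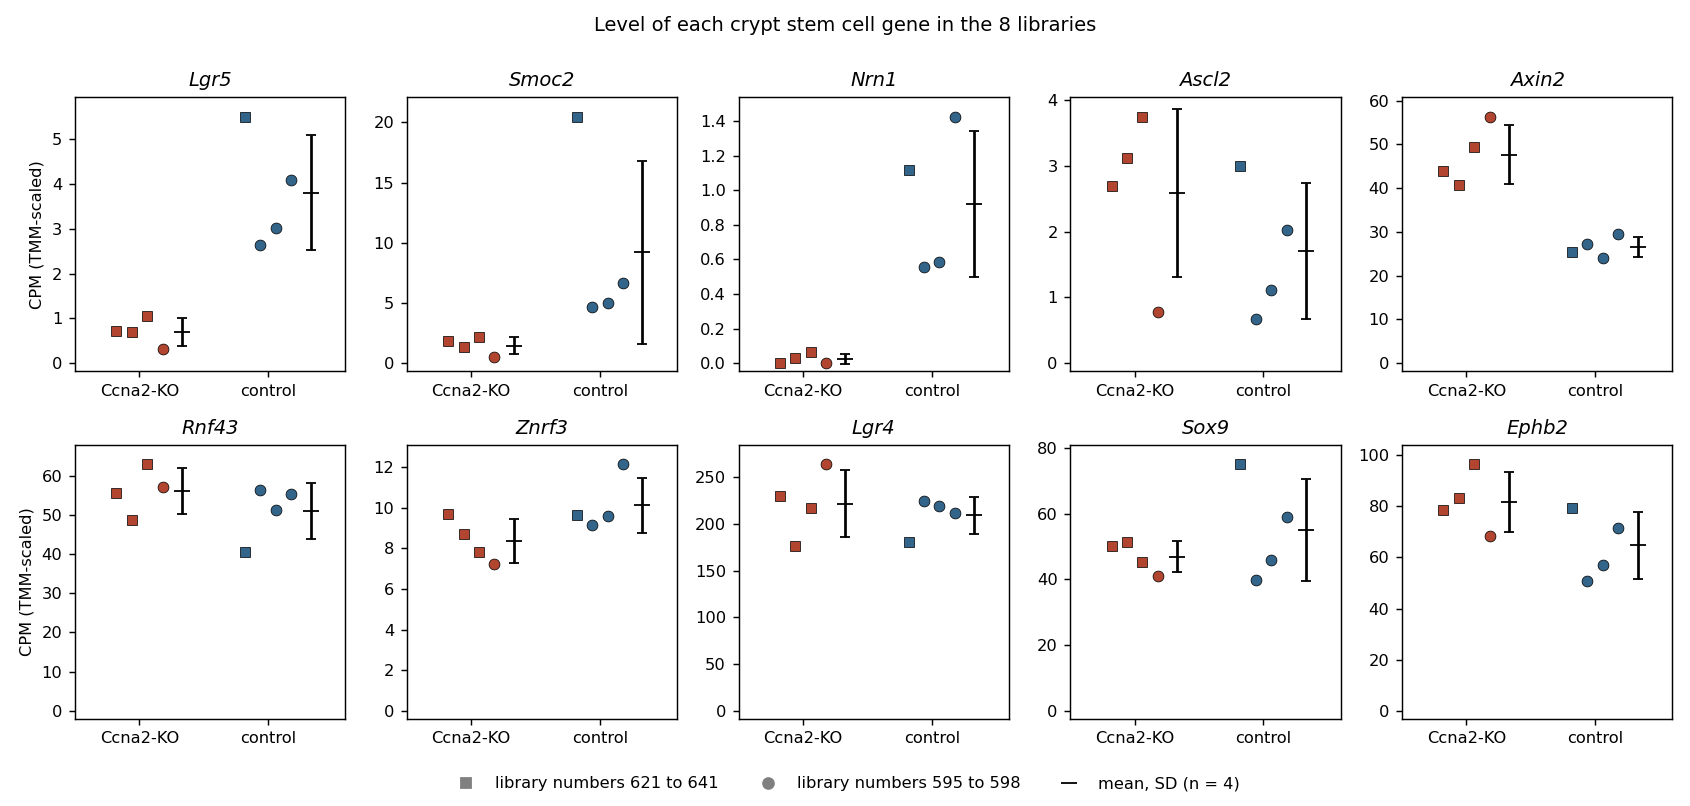
Level of each gene in CPM (linear axes from 0) in the 4 Ccna2-KO (left) and 4 control (right) libraries. Squares are the high and circles the low set of library numbers, and bars are mean and SD (n = 4). Lgr5, Smoc2 and Nrn1 are lower in all 4 Ccna2-KO libraries than in any control, Axin2 is higher, and the groups overlap in the other 6 genes.

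Of the receptors for R-spondins, Lgr5 fell and Lgr4 did not pass the test. Lgr5 marks the cycling stem cells of the crypt base and lies on chromosome 10 (GRCm38, 115450314 to 115587780). Its level was 0.708, 0.690, 1.06 and 0.314 CPM in Ccna2-KO libraries, against 5.51, 2.63, 3.01 and 4.09 CPM in controls. All 4 Ccna2-KO values lay below the lowest control, and Ccna2-KO replicate 4, the one of the low set, was the lowest. The group means were 0.693 ± 0.305 CPM in Ccna2-KO libraries and 3.81 ± 1.29 CPM in controls (SD, n = 4 each), a level 5.50-fold lower. On the log2 scale the difference was -2.44 ± 0.38 (SE), with an edgeR adjusted p of 0.00436, and -2.96 ± 0.29 with the set term (adjusted p = 0.000354). These values rest on 86 counts over the Ccna2-KO libraries and 457 over the controls. On log2 CPM, the two-sided exact permutation p was 0.0286, the smallest value that 4 against 4 libraries can give.

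Lgr4, the paralogue of Lgr5 on chromosome 2 with wide epithelial expression, was measured at 230, 176, 217 and 264 CPM in Ccna2-KO libraries, against 181, 224, 220 and 212 CPM in controls. Its log2 fold change was 0.08 ± 0.14 (edgeR adjusted p = 0.762), with a 95% interval of -0.23 to 0.39.

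Axin2, a scaffold of the beta-catenin destruction complex and a widely used readout of Wnt signalling, moved against Lgr5. It lies on chromosome 11 (GRCm38, 108917828 to 108950783). Its level was 44.0, 40.8, 49.4 and 56.3 CPM in Ccna2-KO libraries, against 25.4, 27.1, 24.1 and 29.6 CPM in controls. Every Ccna2-KO library stood above every control, and Ccna2-KO replicate 4 and control replicate 4, both of the low set, were the highest of their groups. The means were 47.6 ± 6.79 CPM in Ccna2-KO libraries and 26.6 ± 2.36 CPM in controls (SD, n = 4 each), a level 1.79-fold higher. On the log2 scale the difference was 0.84 ± 0.12 (SE), with an edgeR adjusted p of 0.00353, and 0.94 ± 0.12 with the set term (adjusted p = 0.00098).

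Upstream sequence is shown for Axin2, the gene that rose, and for Rnf43, a feedback gene of the same pathway that did not pass the test. Each stretch is the 250 bases before an annotated start in RefSeq (GRCm38.p6), 5′ to 3′ on the strand of the gene, at chr11:108920099-108920348 (plus strand) for Axin2 and chr11:87662837-87663086 (plus strand) for Rnf43. The Axin2 window lies inside the span of the gene (108917828 to 108950783), so it precedes a start downstream of the first. Which Axin2 transcript uses that start was not examined. The Rnf43 window ends just before the span of its gene, which begins at 87663087. Capitals would mark a TCF motif (CTTTGAA or CTTTGAT, either strand) or the E-box CAGCTG (its own reverse complement).
Axin2: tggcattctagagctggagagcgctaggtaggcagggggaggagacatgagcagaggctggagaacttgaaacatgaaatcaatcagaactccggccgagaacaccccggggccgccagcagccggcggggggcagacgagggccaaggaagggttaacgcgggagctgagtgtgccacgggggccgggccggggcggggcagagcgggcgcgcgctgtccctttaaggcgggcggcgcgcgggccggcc
Rnf43: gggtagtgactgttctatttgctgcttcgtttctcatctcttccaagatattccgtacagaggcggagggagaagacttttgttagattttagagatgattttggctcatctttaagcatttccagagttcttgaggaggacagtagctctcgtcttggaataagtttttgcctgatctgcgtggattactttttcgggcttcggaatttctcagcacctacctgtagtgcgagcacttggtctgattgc
Neither motif occurred in these windows, nor in the other 4 windows found for the 10 genes, which belong to Lgr4, Ephb2, Ascl2 and a second start of Rnf43. Of 32851 such windows in the mouse genome, 7.48% held the TCF motif and 13% the E-box. At these shares, finding no match in 6 windows tells little, and sequence outside the windows was not searched. Lgr5, Smoc2, Znrf3, Sox9 and Nrn1 had no entry. The share of G and C was 69.2% in the Axin2 window and 44.4% in the Rnf43 window.

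The count of Axin2 is spread over several annotated transcripts. Of 5 in the table, XM_006532060.1 carried 39.6% of all Axin2 counts, XM_006532057.3 34%, NM_015732.4 23.0%, XM_006532059.3 3.37% and the last none. XM_006532060.1 had 19.3, 18.7, 20.1 and 15.7 CPM in Ccna2-KO libraries, against 9.06, 9.40, 12.4 and 11.2 CPM in controls. XM_006532057.3 had 13.4, 14.5, 20.6 and 22.9 CPM in Ccna2-KO libraries, against 7.28, 8.86, 3.56 and 10.1 CPM in controls. In both of these the groups did not overlap, while in the curated NM_015732.4 they did. NM_015732.4 had 10.1, 6.56, 7.63 and 14.5 CPM in Ccna2-KO libraries, against 8.22, 7.99, 7.84 and 6.50 CPM in controls. Its mean share of the Axin2 count was 20.1% in Ccna2-KO libraries and 29.1% in controls. Tested singly, none of the 20 transcripts of the 10 genes that reached the filter passed the adjusted threshold, against 0.93% of the 38384 transcripts tested (0.591% higher and 0.339% lower), and 6 of the 20 had an unadjusted p under 0.05 in edgeR. On the log2 scale XM_006532060.1 differed by 0.83 ± 0.16 (adjusted p = 0.0606) and XM_006532057.3 by 1.27 ± 0.34 (adjusted p = 0.164). Reads that fit several transcripts are divided between them by estimation, so levels of single transcripts are less certain than their sum.

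**Figure D2:**
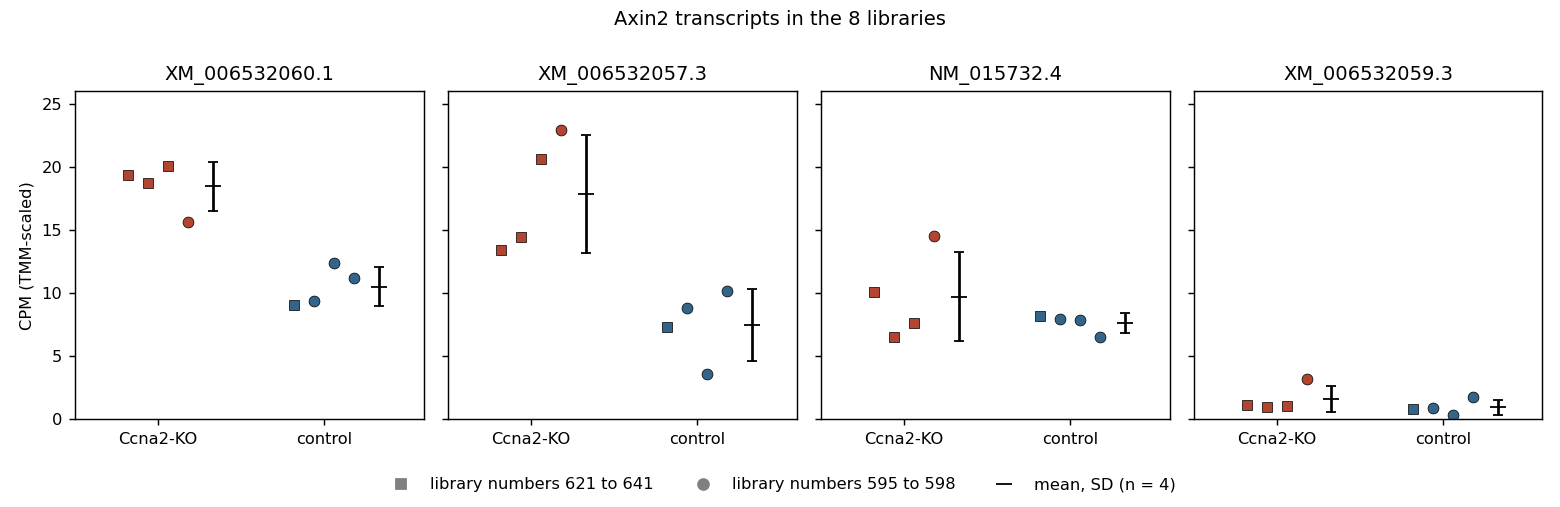
Level in CPM of the 4 Axin2 transcripts that held counts, in Ccna2-KO (left) and control (right) libraries. Squares are the high and circles the low set of library numbers, and bars are mean and SD (n = 4). The groups are apart in XM_006532060.1 and XM_006532057.3 and overlap in NM_015732.4 and XM_006532059.3.

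The membrane ligases that R-spondins remove did not pass the test, in contrast to Axin2. Rnf43 had 55.7, 48.8, 63.0 and 57.3 CPM in Ccna2-KO libraries, against 40.7, 56.4, 51.4 and 55.5 CPM in controls. Its log2 fold change was 0.14 ± 0.13 (edgeR adjusted p = 0.545), with a 95% interval of -0.15 to 0.43. Control replicate 1 was the lowest library for Rnf43. Znrf3, its homologue, had 9.70, 8.69, 7.80 and 7.22 CPM in Ccna2-KO libraries, against 9.65, 9.14, 9.59 and 12.1 CPM in controls. Its log2 fold change was -0.28 ± 0.15 (adjusted p = 0.287; 95% interval -0.62 to 0.06). The groups overlapped in both ligases. The difference between these genes and Axin2 was not itself tested.

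Both transcription factors had overlapping groups. Ascl2, a basic helix-loop-helix factor that keeps stem cell identity in the crypt, had 2.70, 3.12, 3.74 and 0.784 CPM in Ccna2-KO libraries, against 3.0, 0.678, 1.11 and 2.03 CPM in controls. The 4 libraries of the high number set lay between 2.70 and 3.74 CPM and the 4 of the low set between 0.678 and 2.03 CPM, so that its levels separated by library number and overlapped between the genotype labels. The log2 fold change was 0.60 ± 0.53 (edgeR adjusted p = 0.526) and turned to -0.25 ± 0.39 with the set term (adjusted p = 0.696). The ratio of the Lgr5 level to the Ascl2 level was 0.263, 0.221, 0.283 and 0.40 in Ccna2-KO libraries, against 1.84, 3.88, 2.72 and 2.01 in controls.

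Sox9, a factor of stem and progenitor cells that also marks tuft and some enteroendocrine cells, had 50.0, 51.4, 45.3 and 40.9 CPM in Ccna2-KO libraries, against 75.0, 39.9, 45.8 and 59.1 CPM in controls. Control replicate 1 was the highest and control replicate 2 the lowest of all 8 libraries. The log2 fold change was -0.23 ± 0.19 (edgeR adjusted p = 0.493), and -0.43 ± 0.14 with the set term (adjusted p = 0.0671).

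Smoc2, a secreted calcium-binding matrix protein that belongs to the Lgr5 stem cell signature, fell. It lies on chromosome 17 (GRCm38, 14279490 to 14404790). Its level was 1.82, 1.32, 2.15 and 0.549 CPM in Ccna2-KO libraries, against 20.5, 4.63, 4.98 and 6.69 CPM in controls. All Ccna2-KO values were below all controls, and control replicate 1 stood far above the other controls. Means were 1.46 ± 0.698 CPM in Ccna2-KO libraries and 9.19 ± 7.56 CPM in controls (SD, n = 4 each), a level 6.29-fold lower. These means rest on 181 counts over the Ccna2-KO libraries and 1086 over the controls. The log2 difference was -2.64 ± 0.57 (SE), with an edgeR adjusted p of 0.0177. It was -1.88 without control replicate 1 (adjusted p = 0.00488), and without Ccna2-KO replicate 2 the call was lost (-2.59, adjusted p = 0.059). With the set term it was -3.45 ± 0.23 (adjusted p = 6.5e-05). The 8 fibroblast genes examined summed to 14.9 to 37.5 CPM in Ccna2-KO libraries and 11.7 to 20.9 CPM in controls, and 0 of the 6 that were tested passed in edgeR. At an unadjusted p under 0.05 there were 3, DESeq2 called 1 and limma voom 0. Their part in the level of Smoc2 was not tested.

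Nrn1, which encodes neuritin, a membrane-anchored protein first known from neurons, was the scarcest of the 10 genes. It lies on chromosome 13 (GRCm38, 36725622 to 36734477). Ccna2-KO libraries held 0, 1, 2 and 0 counts, against 32, 14, 19 and 47 counts in controls. The summed counts were 3 in Ccna2-KO libraries and 112 in controls, a ratio of scaled counts of 0.0265 with a 95% counting interval of 0.00538 to 0.0795 (exact binomial, counting error only). The edgeR adjusted p was 0.00208, and 0.0018 with the set term. Because Nrn1 met the filter through the controls alone, it had to differ to be tested, and neither p-value adds support. Markers of neurons and glia were low in both groups: 6 genes summed to 1.65 to 2.16 CPM in Ccna2-KO libraries and 1.76 to 2.89 CPM in controls, Sox10 was at 0 in all libraries, and 0 of 2 tested passed in edgeR, also unadjusted, DESeq2 or limma voom.

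Ephb2, a receptor tyrosine kinase whose ephrin ligands position cells along the crypt, had 78.6, 83.1, 96.5 and 68.5 CPM in Ccna2-KO libraries, against 79.4, 51.0, 57.2 and 71.4 CPM in controls. Control replicate 1 fell within the Ccna2-KO range. The log2 fold change was 0.33 ± 0.16 (edgeR adjusted p = 0.221; 95% interval -0.02 to 0.69). Without control replicate 1 it was 0.45 and passed (adjusted p = 0.0395), where 28.5% of all genes were called and 15.1% called higher. With the set term it was 0.15 (adjusted p = 0.438). One transcript, NM_010142.4, carried 68.8% of the Ephb2 counts.

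**Figure D3:**
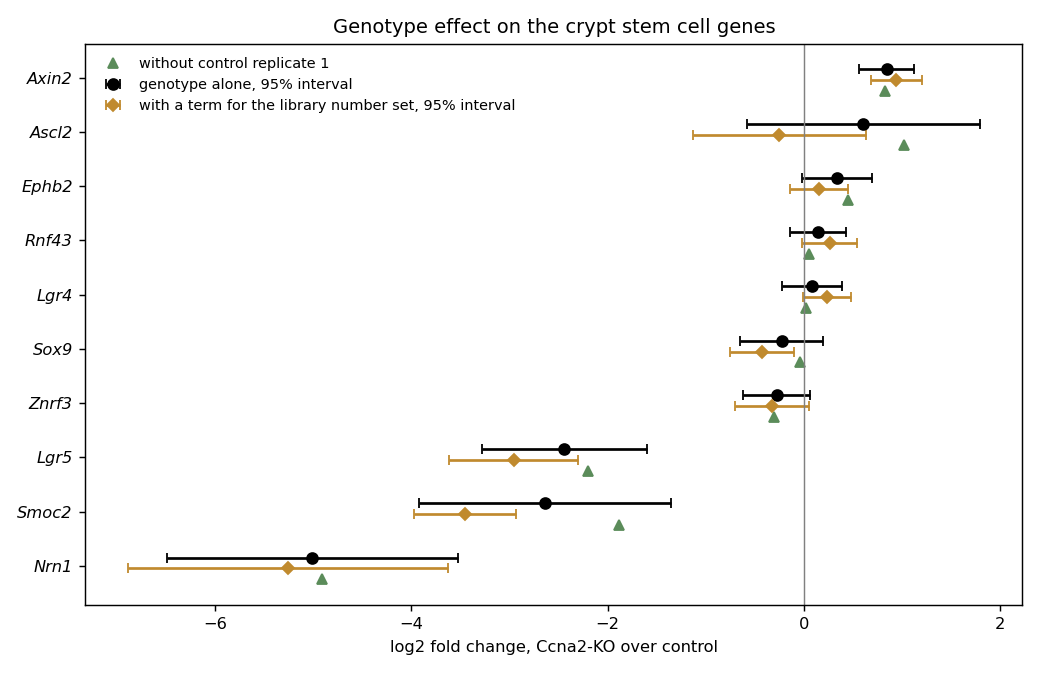
Log2 fold change of each gene, Ccna2-KO over control, from edgeR with genotype alone (black, 95% interval), with the library set as a further term (gold, 95% interval) and without control replicate 1 (green). The intervals of Axin2, Lgr5, Smoc2 and Nrn1 exclude 0 in both fits, that of Sox9 does so with the set term alone, and Ascl2 changes sign with the set term. The value of Nrn1 depends on the prior count and is given in the text as a ratio. Nrn1 met the filter through the controls alone, so it had to differ to be tested.

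Levels per length of transcript placed the genes in a wide order. In controls the mean was 41.3 CPM per kb for Lgr4, followed by Sox9 (13.3), Rnf43 (11.8), Ephb2 (6.77), Axin2 (6.23), Smoc2 (3.24), Znrf3 (1.92), Ascl2 (1.06), Lgr5 (0.808) and Nrn1 (0.568). The ranges over single controls overlapped between neighbours in this order, except between Lgr4 and Sox9 and between Rnf43 and Ephb2. Axin2 and Smoc2 overlapped through control replicate 1 alone. In Ccna2-KO libraries the mean per kb was 43.8 for Lgr4, 13 for Rnf43, 11.3 for Sox9, 11.2 for Axin2, 8.54 for Ephb2, 1.61 for Ascl2, 1.59 for Znrf3, 0.516 for Smoc2, 0.147 for Lgr5 and 0.0143 for Nrn1. Axin2 thus stood above Ephb2 per length in the means of Ccna2-KO libraries and below it in those of controls. Lengths are those of the RefSeq-matched GENCODE transcripts, so the order is approximate for genes with several transcripts. For Axin2 only NM_015732.4 (4260 bases) had a length. That transcript held 23.0% of the Axin2 counts, so the place of Axin2 in the order rests on a length that most of its counts may not share.

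The genes most like Lgr5 and Axin2 across the 8 libraries were ranked by the root mean square distance of centred log2 CPM. Among the 11847 genes with a mean log2 CPM of at least 1, Smoc2 was nearest to Lgr5 (distance 0.38, against a median of 1.31; rank 5 of 15892 with no such minimum), followed by Sult1c2, a sulfotransferase (0.42), and Agmo, an ether lipid monooxygenase (0.43). Sult1c2 averaged 13.1 ± 2.06 CPM in Ccna2-KO libraries and 49.7 ± 12.7 CPM in controls, and Agmo averaged 1.67 ± 0.605 CPM in Ccna2-KO libraries and 9.33 ± 1.45 CPM in controls (SD, n = 4 each). Nearest to Axin2 were Celf5, an RNA-binding protein (0.10, against a median of 0.51), 5031439G07Rik (0.13) and Slc35f6 (0.13). Celf5 averaged 18.1 ± 2.16 CPM in Ccna2-KO libraries and 10.4 ± 0.931 CPM in controls. The distance describes shared shape over these 8 libraries, which the group difference itself largely sets.

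Upstream in the pathway, 3 receptors fell and no tested ligand passed in edgeR with all libraries. Of 21 genes for Wnt ligands and their secretion, 7 were tested and 0 passed, with 0 also under the set term, DESeq2 and limma voom and 1 at an unadjusted edgeR p under 0.05. Without control replicate 1, 1 of 8 tested was called lower, Wnt5a, a ligand best known for signalling without beta-catenin (-1.04, adjusted p = 0.00364), named after its value was seen. Wls, which carries Wnt proteins to the surface, averaged 97.5 ± 6.92 CPM in Ccna2-KO libraries and 98.3 ± 11.9 CPM in controls. Of the 4 R-spondins only Rspo1 was tested (0.493 ± 0.275 CPM in Ccna2-KO libraries and 0.353 ± 0.167 CPM in controls; edgeR adjusted p = 0.579), and Rspo2 and Rspo4 were at 0 in all libraries. Of 15 tested receptors and co-receptors, 3 fell and 0 rose, beside 5.71% of all genes lower and 6.4% higher. The Frizzled receptor Fzd3 averaged 2.45 ± 0.499 CPM in Ccna2-KO libraries and 6.67 ± 1.89 CPM in controls (-1.44 ± 0.25, adjusted p = 0.00753). Fzd2 fell by 1.83 on the log2 scale (SE 0.41) and Ror1, a receptor for Wnt5a, by 1.55 (SE 0.40), and both were scarce, at 0.391 and 0.812 CPM in Ccna2-KO libraries and 1.41 and 2.38 CPM in controls. The call of Fzd2 was lost without Ccna2-KO replicate 2 (adjusted p = 0.0684), and that of Ror1 without any 1 of 6 libraries (adjusted p up to 0.0984). Without control replicate 1, 3 receptors were called higher and 4 lower, where 15.1% of all genes were called higher and 13.4% lower.

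Inside the cell, 1 of 15 tested transduction genes and 1 of 10 tested TCF and co-factor genes were called, beside 12.1% of all genes. With the set term, where 18.2% of all genes were called, 0 transduction genes were higher and 2 lower. In that fit 2 TCF or co-factor genes were higher and 0 lower. The higher ones were Tcf7l1 and, named after its value was seen, Tle1 (0.88, edgeR adjusted p = 0.00678). Without control replicate 1, where 28.5% of all genes were called, 0 transduction genes were higher and 2 lower, and 1 TCF or co-factor gene was higher and 4 lower. The 4 were Bcl9l, Pygo2, Tle3 and Tle4, named after their values were seen. Dvl2, a Dishevelled protein, averaged 5.30 ± 1.31 CPM in Ccna2-KO libraries and 9.21 ± 1.65 CPM in controls (-0.80 ± 0.22, edgeR adjusted p = 0.0461), a call lost without any 1 of 6 libraries (adjusted p up to 0.112). Tcf7l1, a TCF factor known mainly as a repressor of Wnt targets, rose. Its level was 36.4, 34.4, 43.6 and 47.2 CPM in Ccna2-KO libraries, against 18.7, 8.86, 9.29 and 10.5 CPM in controls, and no values overlapped (1.77 ± 0.24, adjusted p = 0.00259). Among 5 tested inhibitors, Kremen2 rose (0.73 ± 0.13, adjusted p = 0.0078) while its paralogue Kremen1, like it a receptor for Dickkopf proteins, fell by 0.58 on the log2 scale (SE 0.11, adjusted p = 0.0102). Adding the set term, 1 inhibitor was higher and 2 lower, and without control replicate 1 there were 2 higher and 2 lower. Over all genes, 6.4% were higher and 5.71% lower in the main fit. With the set term these shares were 9.29% and 8.9%, and without control replicate 1 they were 15.1% and 13.4%.

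Of 13 other targets of the pathway that were tested, Ccnd1 rose and Prox1 fell, and the median log2 fold change was 0.43, beside -0.01 for all genes. Over all genes 6.4% were higher and 5.71% lower, and 9.29% and 8.9% with the set term. Ccnd1, the G1 cyclin D1, averaged 106 ± 25.4 CPM in Ccna2-KO libraries and 66.4 ± 1.25 CPM in controls (0.67 ± 0.16, edgeR adjusted p = 0.0266; 0.0613 with the set term), and the call was lost without any 1 of 6 libraries (up to 0.0695). Prox1, a homeobox factor, was low at 0.134 ± 0.0164 CPM in Ccna2-KO libraries and 0.66 ± 0.252 CPM in controls (-2.27 ± 0.38, adjusted p = 0.00603). It rests on 16 counts in Ccna2-KO libraries and 78 in controls and, like Nrn1, met the filter through the controls alone, so it had to differ to be tested. Under the set term 0 targets were called higher and 1 lower, and without control replicate 1 there were 5 higher and 3 lower, where 15.1% of all genes were called higher and 13.4% lower.

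Genes of wider crypt signatures were counted in the same way. Beside each count below, 6.4% of all genes were higher and 5.71% lower in the main fit. With the set term these shares were 9.29% and 8.9%. Of 14 tested genes from stem cell signatures besides the 10, 0 passed in edgeR (4 at an unadjusted p under 0.05), DESeq2 called 1 and limma voom 0, and the median log2 fold change was 0.05. With the set term 0 rose and 2 fell, and without control replicate 1 there were 2 higher and 1 lower, where 15.1% of all genes were called higher and 13.4% lower. The most abundant, Prom1, averaged 543 ± 32.0 CPM in Ccna2-KO libraries and 516 ± 119 CPM in controls. Among 6 reserve stem cell genes, Bmi1, a Polycomb protein (0.85 ± 0.12, adjusted p = 0.00259), and Tert, the telomerase subunit (0.65 ± 0.16, adjusted p = 0.0321), rose and 0 fell. With the set term 2 were higher and 1 lower, Lrig1 being the lower one, a receptor that restrains growth factor signalling (-0.58, adjusted p = 0.00584), named after its value was seen. Of 7 genes of deep crypt secretory cells, which neighbour the stem cells of the colon, 2 fell and 1 rose. The Notch ligand Dll1 averaged 3.10 ± 0.43 CPM in Ccna2-KO libraries and 9.79 ± 1.04 CPM in controls (-1.66 ± 0.16, adjusted p = 0.000536), Atoh1, the secretory lineage factor, changed by -0.69 ± 0.18 (adjusted p = 0.0391), and Reg4, a secreted lectin, by 1.42 ± 0.34 (adjusted p = 0.027). With the set term 0 of these 7 rose and 4 fell, and without control replicate 1 there were 2 higher and 2 lower. The calls of Tert, Reg4, Atoh1 and Ephb4 were each lost without any 1 of at least 5 libraries (adjusted p up to 0.101). Among the 6 tested Eph receptors and ephrins besides Ephb2, the receptor Ephb4 fell by 0.65 on the log2 scale (SE 0.16, adjusted p = 0.027). Under the set term 2 were higher and 1 lower, the higher ones being the ephrins Efnb2 (0.61, adjusted p = 0.00349) and Efnb3 (1.26, adjusted p = 0.0176), named after their values were seen. Without control replicate 1 there were 1 higher and 2 lower.

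**Figure D4:**
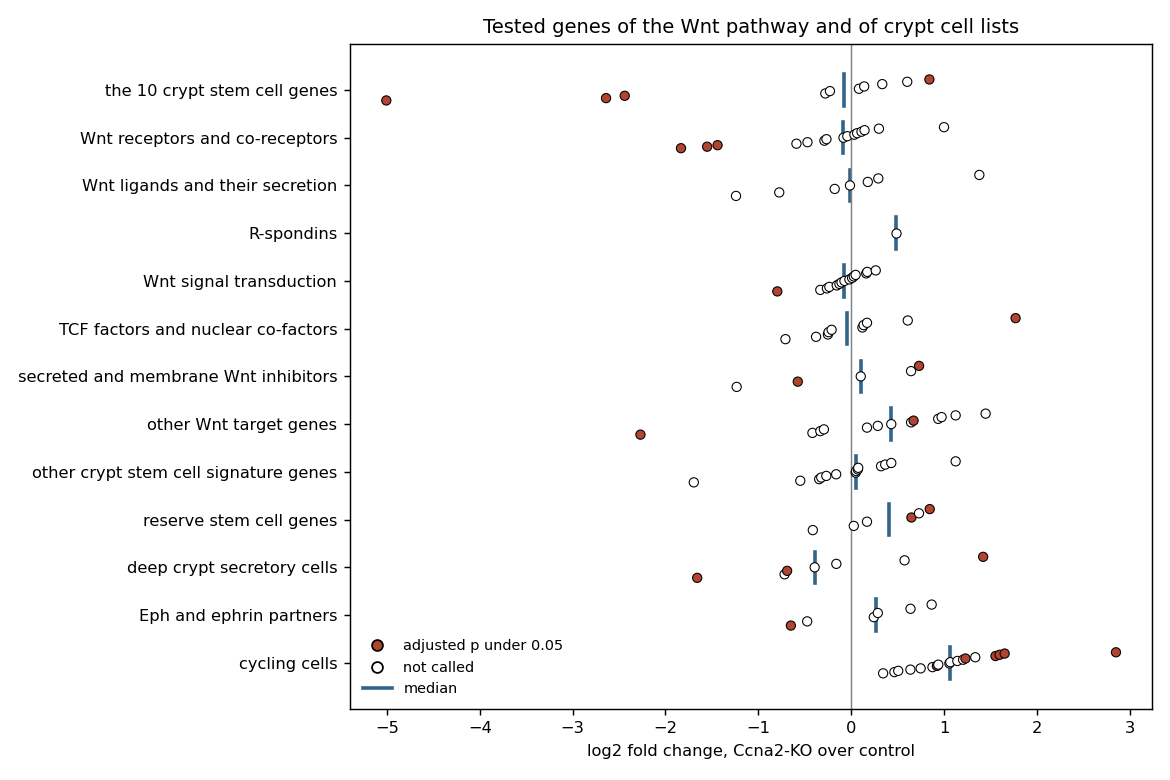
Log2 fold change, Ccna2-KO over control, of the tested genes in each list (1 point a gene). Filled points have an edgeR adjusted p under 0.05, and blue bars are list medians. Among the 10 crypt stem cell genes 3 filled points lie left of 0 and 1 right of it, whereas the cycling cell genes all lie to the right with a median of 1.06. Of the 3, Nrn1 met the filter through the controls alone, so it had to differ to be tested.

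Genes of cycling cells and of some other cell types moved with the group labels. Over all genes tested, 6.4% were higher and 5.71% lower, and 9.29% and 8.9% with the set term. Of 18 cycling cell genes, 6 rose and 0 fell, with summed levels of 866 to 1328 CPM in Ccna2-KO libraries and 356 to 855 CPM in controls. With the set term 9 were higher and 0 lower, and the median log2 fold change was 0.70 in place of 1.06. Ccna2-KO replicate 4, of the low set, had the lowest sum of its group (866 CPM). Control replicate 1, of the high set, was the highest of the controls (855 CPM). Without control replicate 1 all 18 passed as higher, where 15.1% of all genes were called higher. The calls of Bub1 and Rrm1 were lost without Ccna2-KO replicate 2 or 3, or control replicate 2, 3 or 4. Mki67 averaged 283 ± 43.1 CPM in Ccna2-KO libraries and 96.4 ± 26.5 CPM in controls (edgeR adjusted p = 0.00182), and Top2a and Rrm2 rose by 1.65 ± 0.27 and 2.85 ± 0.36 on the log2 scale. The 9 T cell genes in the table summed to 8.96 to 20.2 CPM in Ccna2-KO libraries and 33.3 to 171 CPM in controls, and all 9 fell (7 of 9 with the set term), Cd2 having met the filter through the controls alone. With 1 library left out, 6 to 9 of them were called lower. Cd3d overlapped between the groups, and its call was lost without any 1 library other than control replicate 1 (edgeR adjusted p up to 0.129). The 6 enteroendocrine genes summed to 30.0 to 56.4 CPM in Ccna2-KO libraries and 159 to 214 CPM in controls, and 4 fell. The part of these cells in the levels of the crypt stem cell genes was not tested.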

How the data were processed

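RNA of 8 libraries (4 per group) was quantified by the authors with kallisto against GRCm38 (mm10), per the submitters' processing notes, and deposited as estimated counts per RefSeq transcript. No further settings are recorded in the labels. For each symbol the estimated counts were added and then rounded, since the count test needs whole numbers; 687 of 107193 transcripts without a symbol, 3.19% to 5.51% of a library, were left out. Gene counts per library were 25960180 to 33028486.

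Groups were compared with edgeR 4.0.16 (filterByExpr, TMM scaling, robust quasi-likelihood test, Benjamini-Hochberg adjustment over 15893 genes, threshold 0.05) in R 4.3.3, after the script was tested on simulated data. Alternatives used DESeq2 1.42.0, limma voom 3.58.1, other scalings and filters, a replicate block, a term for the library number set, and each library left out. The 10 genes and the other lists were chosen with earlier results of these data known. From each list were named up to 3 called genes per direction with the smallest p, or else the most abundant gene, and for Lgr5 and Axin2 the 3 genes nearest in centred log2 CPM with a mean of at least 1. CPM values give an SD over 4 libraries, and counting intervals cover counting error only.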

Additional observations from a re-analysis of the deposited data

How the results depend on the processing

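Each of the 10 genes was refitted under up to 19 alternatives. Lgr5, Smoc2, Axin2 and Nrn1 kept their direction in all of them, and Rnf43, Znrf3, Sox9 and Ephb2 did too. The call of Smoc2 was lost without Ccna2-KO replicate 2. With the most abundant transcript tested singly, adjusted p (edgeR) was 0.0628 for Lgr5, 0.108 for Smoc2, 0.0606 for Axin2 and 0.0622 for Nrn1, so these 4 calls were lost; 38384 transcripts were then tested in place of 15893 genes. Lgr4 reversed without Ccna2-KO replicate 4, with leave-one-out values of -0.0094 to 0.18, and Ascl2 reversed to -0.25 with the library number set term. Ephb2 passed without control replicate 1 (0.45). Requiring 1 CPM in every library of 1 group removed Ascl2 and Nrn1, which then gave no value.

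Over all genes, 1017 were called higher and 907 lower. Leaving out 1 library at a time gave 572 to 2457 higher and 400 to 2170 lower, the highest of both without control replicate 1. Of the 10 genes, 1 to 2 were then called higher and 2 to 3 lower. DESeq2 called 1411 lower and the library number set term 1415 lower. A replicate block gave 619 higher and 368 lower. The replicate numbers do not pair the libraries: deviations of same-numbered libraries correlated at -0.0694, -0.352, -0.263 and 0.153. Ccna2-KO replicates 1 to 4 matched control replicates 3, 1, 1 and 3 best, so none matched its own number. The causes were not tested. Other scalings moved the median of all genes by at most 0.0112 on the log2 scale. Low counts limit Nrn1, Lgr5, Ascl2 and Smoc2 most.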

Other observations

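The ratio of the Axin2 count to the Lgr5 count was 62.2, 59.1, 46.6 and 179 in Ccna2-KO libraries, against 4.61, 10.3, 8.01 and 7.23 in controls. The ratio of Smoc2 to Lgr5 was 2.57, 1.91, 2.03 and 1.75 in Ccna2-KO libraries, against 3.72, 1.76, 1.65 and 1.64 in controls, so that both genes fell while their ratio overlapped between the groups. The ratio of Axin2 to Rnf43 was 0.79, 0.836, 0.785 and 0.982 in Ccna2-KO libraries, against 0.623, 0.481, 0.47 and 0.532 in controls. These ratios were described after their values were seen and were not tested.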
